A study of Rattus norvegicus with 12 samples.

Results

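Cyp2e1 and Nat1, a pair of genes of xenobiotic metabolism, were followed across rat thoracic aorta from 4 groups of animals. They were the only 2 genes of a list of 122 genes of xenobiotic metabolism that the array named through a transcript accession. Each was read by 1 probe, A_44_P409232 for the Cyp2e1 transcript NM_031543 and A_44_P276435 for the Nat1 transcript NM_053853, out of 38 named genes and 38321 probes on the array. Both were selected on their measured levels, namely those in the hypertensive strain against the normotensive strain and, for Cyp2e1, that under captopril. Those differences are therefore given below as a description with no test.

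The animals were male rats of 2 strains, the normotensive Wistar-Kyoto rat (WKY) and the spontaneously hypertensive rat (SHR), an inbred strain that develops high blood pressure with age. WKY and SHR-C rats were untreated and received water by gavage, SHR-Bh rats received the high dose of BSJY, a granule preparation of 8 herbs, at 6.75 g/ml/day, and SHR-Ca rats received captopril, an inhibitor of the angiotensin-converting enzyme, at 0.125 g/ml/day. All 3 regimens ran once a day for 16 weeks from an age of 12 weeks. The age on the labels is 32 weeks, which does not follow from these times. Each group had 3 arrays of total RNA, 12 in all, and the labels do not say whether an array is 1 animal, so a p-value here reflects only how these samples vary, which may be technical. The protocol in the labels also says that the aorta was irradiated, for every group alike and with no dose.

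CYP2E1 is a cytochrome P450 of the endoplasmic reticulum that oxidises ethanol, acetone, fatty acids and small solvents and drugs, and its cycle readily leaks reactive oxygen species. It is a phase I enzyme and is best known from liver, where ethanol and fasting raise it. NAT1 is a cytosolic arylamine N-acetyltransferase, a phase II enzyme that moves an acetyl group from acetyl-CoA to aromatic amines and hydrazines. Both act on small foreign molecules, by oxidation in the first case and by conjugation in the second.

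The bases just upstream of Cyp2e1 are shown because this gene had the largest rise from WKY to SHR-C among probes measured on both sides. The sequence is that of RefSeq on the GRCr8 assembly, made from the Brown Norway strain and not from WKY or SHR, at chr1:205269717-205269966 on the plus strand, and ends at the base before the transcript start. Capitals mark the letters of a TATA box and of a CCAAT box.

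Cyp2e1 upstream region: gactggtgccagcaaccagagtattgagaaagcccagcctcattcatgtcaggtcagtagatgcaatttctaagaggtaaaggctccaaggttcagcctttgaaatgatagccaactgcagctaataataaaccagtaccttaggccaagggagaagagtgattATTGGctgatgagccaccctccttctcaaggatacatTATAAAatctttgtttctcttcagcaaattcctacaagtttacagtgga

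The letters of the TATA box, TATAAA, began 49 bases before the annotated start. They are present on either strand of 12.9% of 33469 rat upstream regions of the same length. Whether they act as a TATA box at this distance was not tested. The CCAAT box was read on the minus strand, so it appears as ATTGG, 86 bases before the start, and 34.0% of the regions hold CCAAT on either strand. These 2 motifs did not overlap. The exact letters GTTAAT, a half-site of the liver factor HNF1, were searched on both strands and are not in this window, while 6.45% of all regions hold them. Sites that differ from these letters were not searched, so whether the window holds an HNF1 site was not tested. The matches describe letters only, and no measurement of binding or of methylation was made in these samples. No upstream sequence of Nat1 is shown.

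The array carried 10 spots of each probe. All 120 spots of Cyp2e1 and all 120 spots of Nat1 over the 12 arrays were well above background by the scanner software, and none was saturated. The software marked 8 Cyp2e1 spots and 0 Nat1 spots as outliers, and these were left out. The spots of 1 array had a median SD on the log2 scale of 0.053 for Cyp2e1, from 0.042 on SHR-C 2 to 0.18 on WKY 1, and of 0.082 for Nat1, from 0.042 on SHR-C 3 to 0.14 on WKY 2. The spread between spots was thus smaller than the SD between arrays of a group for each gene in each group, except for Cyp2e1 on WKY 1, where the spots varied by as much as the WKY arrays did.

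In untreated WKY aorta the Cyp2e1 spots were dim, with a geometric mean intensity of 28.6 on WKY 1, 66.4 on WKY 2 and 62.4 on WKY 3, in the arbitrary units of the scanner and before any scaling. In untreated SHR aorta the same probe read 6228 on SHR-C 1, 3684 on SHR-C 2 and 6415 on SHR-C 3. All SHR-C arrays were far above all WKY arrays, and the lowest SHR-C array was still brighter than the brightest WKY array by a wide margin. Against the local background around each spot, the median Cyp2e1 spot was 3.07 to 6.45 times as bright on the WKY arrays and 101.9 times (SHR-Bh 1) to 620.8 times (SHR-Ca 2) as bright on the SHR arrays. The Cyp2e1 signal of WKY was low, though flagged as well above background. It lay below the median probe of the same arrays, at 41.1 on WKY 1, 74.5 on WKY 2 and 82.6 on WKY 3. The fold between the strains therefore rests on a dim WKY signal, and binding of other transcripts to the probe was not tested.

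Under BSJY the Cyp2e1 intensity was 2082 on SHR-Bh 1, 6292 on SHR-Bh 2 and 4748 on SHR-Bh 3. Under captopril it was 10370 on SHR-Ca 1, 11490 on SHR-Ca 2 and 10370 on SHR-Ca 3. The 3 captopril arrays lay close together and above every other array, while the BSJY arrays overlapped those of untreated SHR, with SHR-Bh 1 the lowest of the 9 SHR arrays.

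Nat1 was of moderate brightness in every group. Its intensity was 133.6, 367.6 and 361.4 on WKY 1 to 3, and 275.6, 217.0 and 335.7 on SHR-C 1 to 3. It was 179.4, 459.1 and 389.3 on SHR-Bh 1 to 3, and 269.9, 691.0 and 248.8 on SHR-Ca 1 to 3. Before scaling the 4 groups overlapped: WKY 2 and WKY 3 were brighter than all SHR-C arrays, and only SHR-Bh 2, SHR-Bh 3 and SHR-Ca 2 were brighter than every WKY array.

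**Figure D1:**
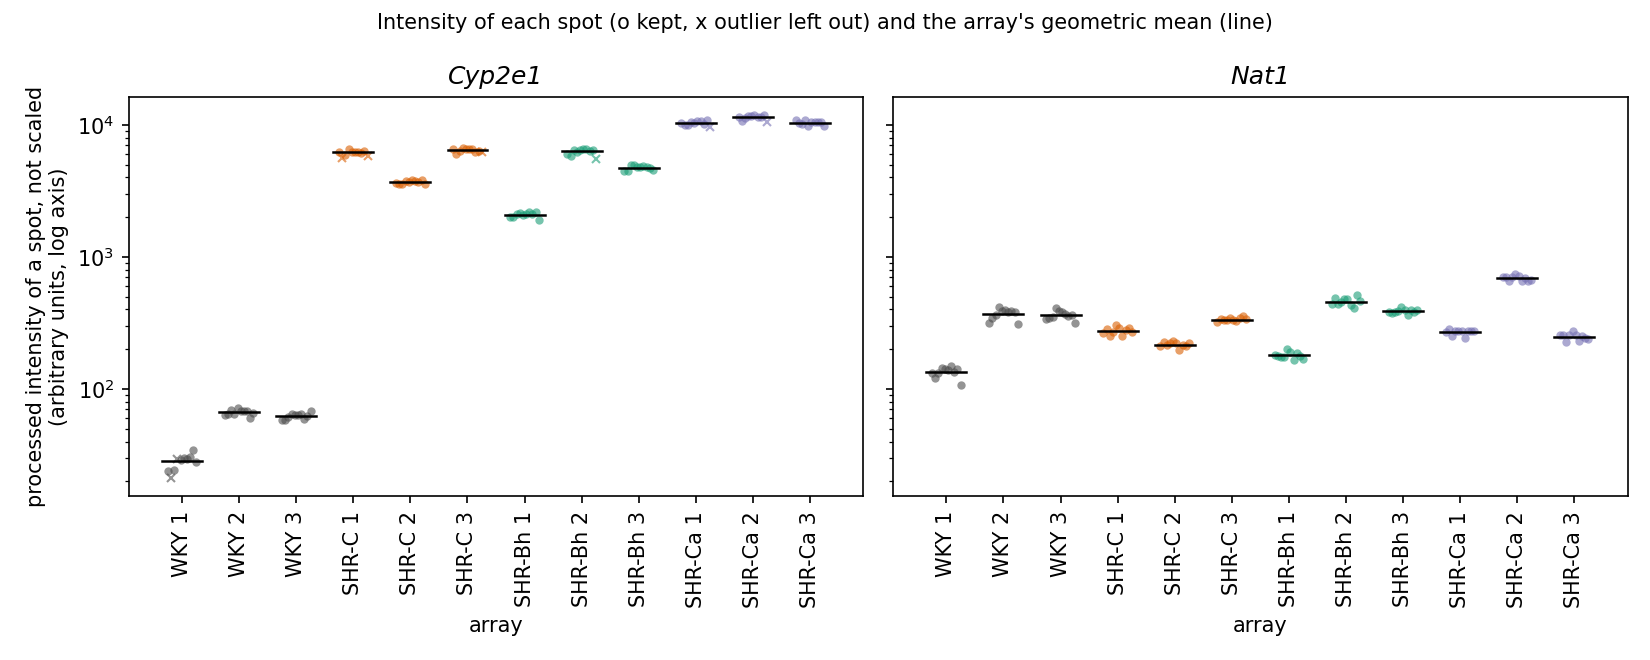
Processed intensity of every spot on a log axis, without scaling, by array, for Cyp2e1 (left) and Nat1 (right), where circles are spots kept, crosses are outlier spots left out and the line is the geometric mean of the array. The Cyp2e1 spots lie between 28.6 and 66.4 on average on WKY arrays and between 2082 and 11490 on SHR arrays, whereas the Nat1 spots of the strains overlap in range.

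To compare arrays, the level of a probe was taken as its mean log2 intensity minus the log2 of the 75th percentile of that array, so that a level of 0 is the brightness of the 75th percentile. The percentile stood higher on WKY arrays (an intensity of 182.0 to 384.8) than on most SHR arrays (109.8 to 190.2), and 73.95% to 87.93% of probes were well above background on WKY arrays against 51.16% to 68.58% on SHR arrays. The WKY arrays also formed a scan session of their own, 625 days after the last SHR scan. Strain, scan session and array brightness therefore cannot be told apart in any comparison with WKY. Within bulk aorta, fewer cells of a type and less RNA per cell cannot be told apart either. None of 82 markers in 13 lists of cell types, from smooth muscle and endothelium to adipocyte and hepatocyte, was named on the array, so the tissue label was not checked against markers.

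The Cyp2e1 level was -2.67, -2.38 and -2.63 on WKY 1 to 3, with a mean of -2.56 ± 0.16 (SD, n = 3). It was 5.03, 4.59 and 5.41 on SHR-C 1 to 3, with a mean of 5.01 ± 0.41 (SD, n = 3). The difference of 7.57 (SE 0.29, 95% interval 6.94 to 8.20) amounts to a 189.7-fold higher intensity in SHR-C (interval 122.5 to 293.6). Among the 20607 probes measured on both sides it was the largest rise, followed by the probe without a gene name ASRNV20022464 at 7.25. The largest fall, of the probe without a gene name ASRNV20001199, was wider at -9.09. For comparison, 21.9% of 29618 tested probes were called higher in SHR-C than in WKY at an adjusted p of 0.05 by limma with Benjamini-Hochberg adjustment. All 3 SHR-C arrays lay above all 3 WKY arrays for 26.9% of probes. Since this contrast was used to choose the gene, nothing is read from these shares.

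Cyp2e1 was far above WKY in both treated groups too. The level was 4.25, 5.09 and 4.99 on SHR-Bh 1 to 3 (mean 4.78 ± 0.46, SD, n = 3), and the difference from WKY was 7.33 (SE 0.29), or 161.3-fold. It was 6.26, 5.97 and 6.28 on SHR-Ca 1 to 3 (mean 6.17 ± 0.17, SD, n = 3), and the difference from WKY was 8.73 (SE 0.29), or 423.6-fold. These 2 comparisons use the same WKY arrays as the one with SHR-C. In each of them Cyp2e1 had the largest rise, among 18222 probes for SHR-Bh, with a next value of 6.60, and among 19978 for SHR-Ca, with a next value of 7.28. All 9 SHR arrays were above all WKY arrays, as for 20.4% of probes overall.

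The Nat1 level was -0.45, 0.093 and -0.091 on WKY 1 to 3, with a mean of -0.15 ± 0.27 (SD, n = 3). On SHR-C 1 to 3 it was 0.54, 0.50 and 1.15, with a mean of 0.73 ± 0.37 (SD, n = 3), so the difference was 0.88 (SE 0.33, 95% interval 0.15 to 1.60), a 1.84-fold higher scaled intensity. All 3 SHR-C arrays lay above all WKY arrays after this scaling, as for 26.9% of probes. The difference was modest within the table: 26.4% of the 20607 probes measured on both sides had a larger rise, and the median difference over all tested probes was -0.42.

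Nat1 in the treated groups lay further above WKY. Its level was 0.71, 1.32 and 1.38 on SHR-Bh 1 to 3 (mean 1.14 ± 0.37, SD, n = 3), which was 1.28 (SE 0.33) above WKY. It was 0.99, 1.91 and 0.90 on SHR-Ca 1 to 3 (mean 1.27 ± 0.56, SD, n = 3), which was 1.42 (SE 0.33) above WKY. All 9 SHR arrays were above all WKY arrays for Nat1 too, after scaling, as for 20.4% of probes.

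**Figure D2:**
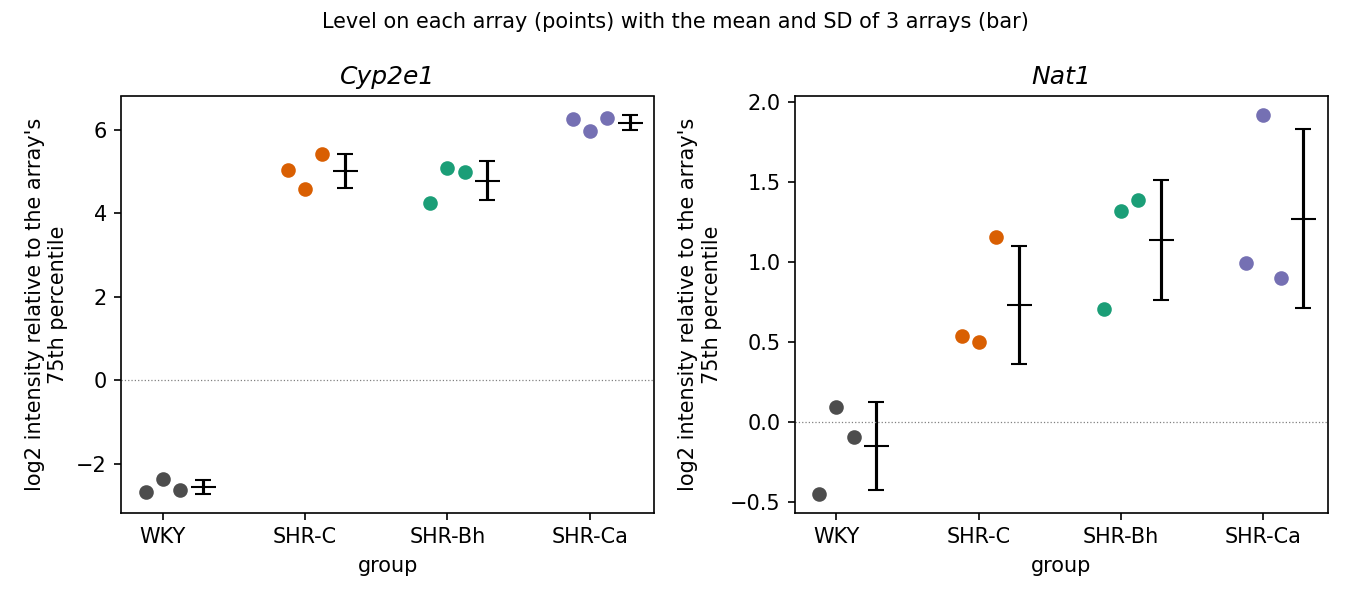
Level of Cyp2e1 (left) and Nat1 (right) on each array, as log2 intensity relative to the 75th percentile of that array, by group, with the mean and SD of 3 arrays beside the points and separate vertical ranges for the 2 genes. The Cyp2e1 means run from -2.56 in WKY to 6.17 in SHR-Ca and the Nat1 means from -0.15 in WKY to 1.27 in SHR-Ca.

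The size of the Nat1 strain difference depended on the scaling between arrays, and the scaling did not bring the Cyp2e1 arrays of the strains to overlap. With no scaling, a setting chosen after seeing the data, the difference between SHR-C and WKY was 6.75 for Cyp2e1 and 0.059 for Nat1 on the log2 scale, and 0 of 3 SHR-C arrays exceeded every WKY array for Nat1. With the arrays set to the median of 10 named reference genes it was 7.06 for Cyp2e1 and 0.37 for Nat1, and 8 of 9 SHR arrays exceeded every WKY array for Nat1. Quantile normalization gave 8.33 for Cyp2e1, and the normexp background correction gave 6.05. Over 9 ways of scaling or of summarising spots, all 9 SHR arrays were above all WKY arrays in 9 for Cyp2e1 and in 7 for Nat1. The share of all probes with this order was 20.4% in the main setting and was not computed for the others. Keeping the outlier spots or taking the median of spots changed the values little from the main setting. Both genes were also selected on the strain difference, so these counts are a description only. The scalings and the background correction also moved the median difference of all probes between SHR-C and WKY, from -0.42 to -1.24 with no scaling, -0.93 with the reference genes, -0.088 with quantiles and 0.18 with normexp.

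**Figure D3:**
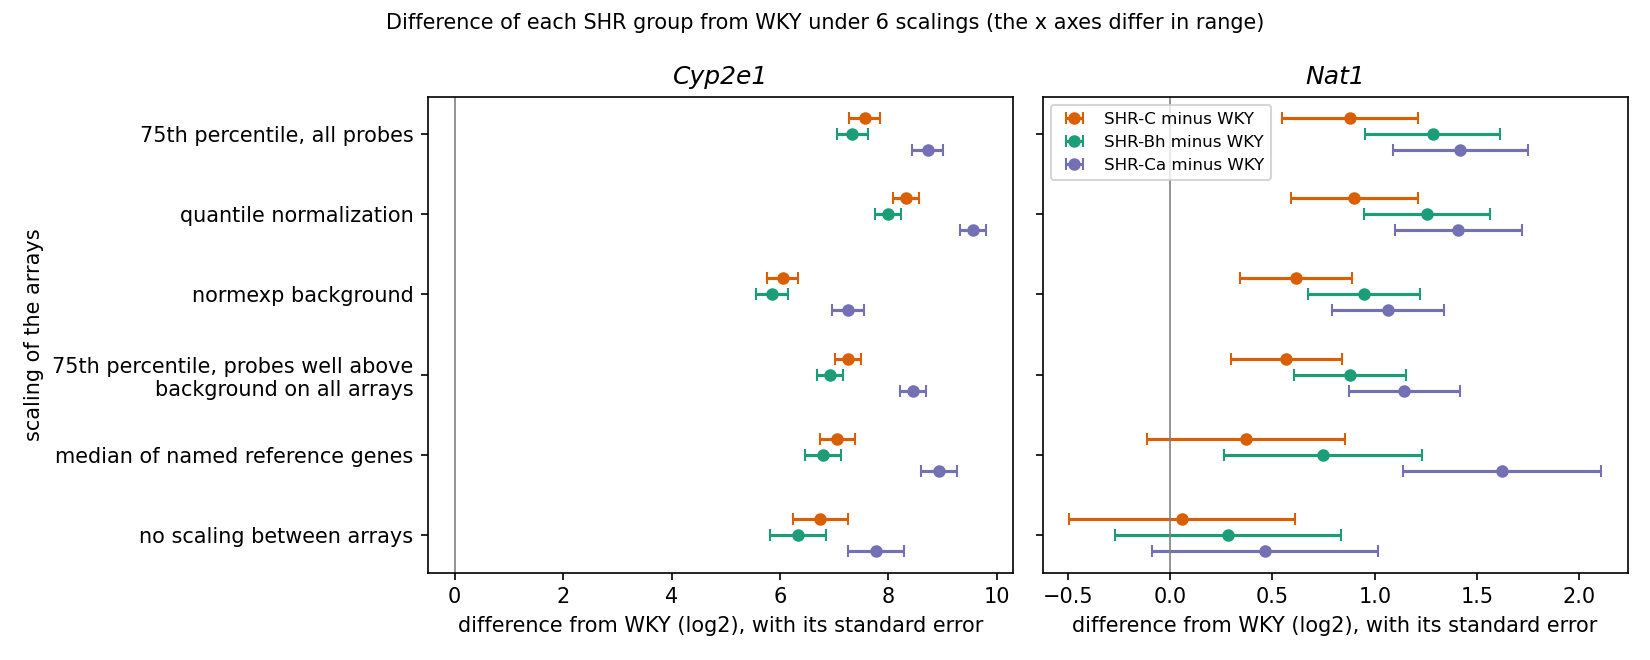
Difference of each SHR group from WKY on the log2 scale, with its standard error, under 6 scalings of the arrays, for Cyp2e1 (left) and Nat1 (right), with x axes of unlike range. Cyp2e1 stays between 5.85 and 9.57 in all 3 groups, while Nat1 in SHR-C runs down to 0.37 with the reference genes and to 0.059 with no scaling.

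Cyp2e1 and Nat1 belong to 50 probes printed 10 times on each array. Of the 40 others that passed the filter on dim probes, 32 had a positive difference between SHR-C and WKY, with a median of 1.08 and a range of -2.42 to 4.14, while the median of all tested probes was -0.42. By the same limma test, 23 of the 40 were called higher in SHR-C and 1 lower. Over all 29618 tested probes, 6489 (21.9%) were called higher and 11792 lower. The Cyp2e1 difference was larger than all 40, and the Nat1 difference was larger than 15 of the 40. Nat1 lay below the middle of these probes, and Cyp2e1 lay outside their range. Both genes were selected on this difference, so their places among these probes are a description only.

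Within the hypertensive strain, setting BSJY arrays against untreated SHR-C arrays asked whether the herbs changed either gene. Cyp2e1 differed by -0.23 (SE 0.29, 95% interval -0.86 to 0.40, limma unadjusted p = 0.43, adjusted p = 0.77 over 29618 probes), which was within the spread between arrays. The interval runs from 0.549 to 1.32 times the intensity of SHR-C. Neither group lay apart: no SHR-Bh array was above all SHR-C arrays, and SHR-Bh 1 was below all of them. Without SHR-Bh 1 the difference was 0.032, so the sign rested on that array. Nat1 differed by 0.41 (SE 0.33, interval -0.32 to 1.13, limma unadjusted p = 0.24, adjusted p = 0.65), and 2 of 3 SHR-Bh arrays were above all SHR-C arrays. In this comparison 0.0945% of probes passed the test, and neither gene was among them. No scan session held arrays of both SHR-Bh and SHR-C, so BSJY and scan session cannot be told apart directly. With scan session as a fixed block among SHR arrays, the groups are linked only through captopril arrays. Cyp2e1 then differed by -0.55 (SE 0.71) and Nat1 by 0.77 (SE 0.76), with wider errors than without the block.

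Captopril arrays were set against the same SHR-C arrays. Cyp2e1 was 1.16 higher under captopril on the log2 scale (SE 0.29, 95% interval 0.53 to 1.79), or 2.23-fold, and all 3 SHR-Ca arrays were above all SHR-C arrays, as for 7.76% of probes. This difference was in view when the gene was chosen and is not tested. It was the 302nd largest rise of 20248 probes measured on both sides, where 1.49% had a larger one, and it was larger than that of all 40 other probes printed 10 times, whose highest was 1.01. At an adjusted p of 0.05, 0.28% of probes passed in this comparison, all 83 of them lower in SHR-Ca, and 3615 of 29618 had an unadjusted p under 0.05 in either direction. In the scan session that held 2 captopril arrays (1 and 2) with 2 untreated ones (2 and 3), the Cyp2e1 difference was 1.12 (SE 0.43), and with the reference-gene scaling over all arrays it was 1.87. That scaling also moved the median difference of all tested probes between SHR-Ca and SHR-C, from -0.052 to 0.66.

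Nat1 was 0.54 higher under captopril than in SHR-C (SE 0.33, 95% interval -0.19 to 1.26, limma unadjusted p = 0.13, adjusted p = 0.51), which did not pass the test. The interval runs from 0.879 to 2.40 times the SHR-C intensity. With the scaling on the 75th percentile, SHR-Ca 2, at a level of 1.91, was the 1 captopril array above all SHR-C arrays. With the arrays set to the named reference genes, all 3 were above them, and the difference was 1.25 (limma adjusted p = 0.15). The median difference of all tested probes was then 0.66, and the share of probes with all 3 above was not computed for that scaling. Without SHR-Ca 2 the difference on the 75th percentile scale was 0.22, and within the shared scan session, which holds SHR-Ca 2, it was 0.63 (SE 0.48, adjusted p = 0.95). The size of the captopril value of Nat1 thus varied with the scaling and with that array, on which Cyp2e1 was the lowest of its group after scaling on the 75th percentile.

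Between the treatments, Cyp2e1 was 1.39 lower under BSJY than under captopril (difference -1.39, SE 0.29, 95% interval -2.02 to -0.76), or 2.63-fold, with all 3 SHR-Bh arrays below all 3 SHR-Ca arrays. All SHR-Ca arrays were above all SHR-Bh arrays for 5.48% of probes. The high captopril level of Cyp2e1 had been used in choosing it, so no test is given. In the scan session shared by SHR-Bh 1, SHR-Bh 3 and SHR-Ca 3 the difference was -1.66 (SE 0.55), and with the reference-gene scaling over all arrays it was -2.13. Nat1 differed by -0.13 between the treatments (SE 0.33, interval -0.86 to 0.59, limma unadjusted p = 0.69, adjusted p = 0.94), by 0.15 within the shared session, and by -0.87 (adjusted p = 0.23) with the reference-gene scaling. The limma test called 0% of 29618 probes here, while 2126 had an unadjusted p under 0.05. The reference-gene scaling moved the median difference of all tested probes, BSJY minus captopril, from 0.034 to -0.71. BSJY and captopril were given at unlike doses.

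In order of mean level, Cyp2e1 ran from WKY through SHR-Bh and SHR-C to SHR-Ca. The neighbours SHR-Bh and SHR-C did not differ beyond their spread, while WKY and SHR-Ca did not overlap with any other group. Nat1 ran from WKY through SHR-C and SHR-Bh to SHR-Ca, and the arrays of neighbouring SHR groups overlapped. For Nat1 the difference of 0.41 between SHR-C and SHR-Bh was slightly over their SD of 0.37 and did not pass the test. Across the 9 SHR arrays the Cyp2e1 level ranged from 4.25 on SHR-Bh 1 to 6.28 on SHR-Ca 3 (SD 0.72), and the Nat1 level from 0.50 on SHR-C 2 to 1.91 on SHR-Ca 2 (SD 0.45).

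The probes most like each gene were found by the root mean square difference between level profiles, each centred on its own mean, over the 12 arrays and over the 9 SHR arrays. For Cyp2e1 the nearest of 29513 probes over 12 arrays was ASRNV20001332, a probe of 1 spot without a gene name, at 0.51, while the Cyp2e1 profile itself had a root mean square of 3.46 about its mean. It was also the nearest of 29516 over the SHR arrays, at 0.062 against 0.68. Its intensity was 10.6, 35.8 and 31.3 on WKY 1 to 3, where it was well above background on 2 of the 3, and 2198 (SHR-Bh 1) to 12260 (SHR-Ca 2) on the SHR arrays. It followed Cyp2e1 array by array within SHR, including the low value of SHR-Bh 1 and the high values of captopril, and in WKY it lay further below its own SHR mean than Cyp2e1 did. What transcript this probe reads is not known from the files used here.

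**Figure D4:**
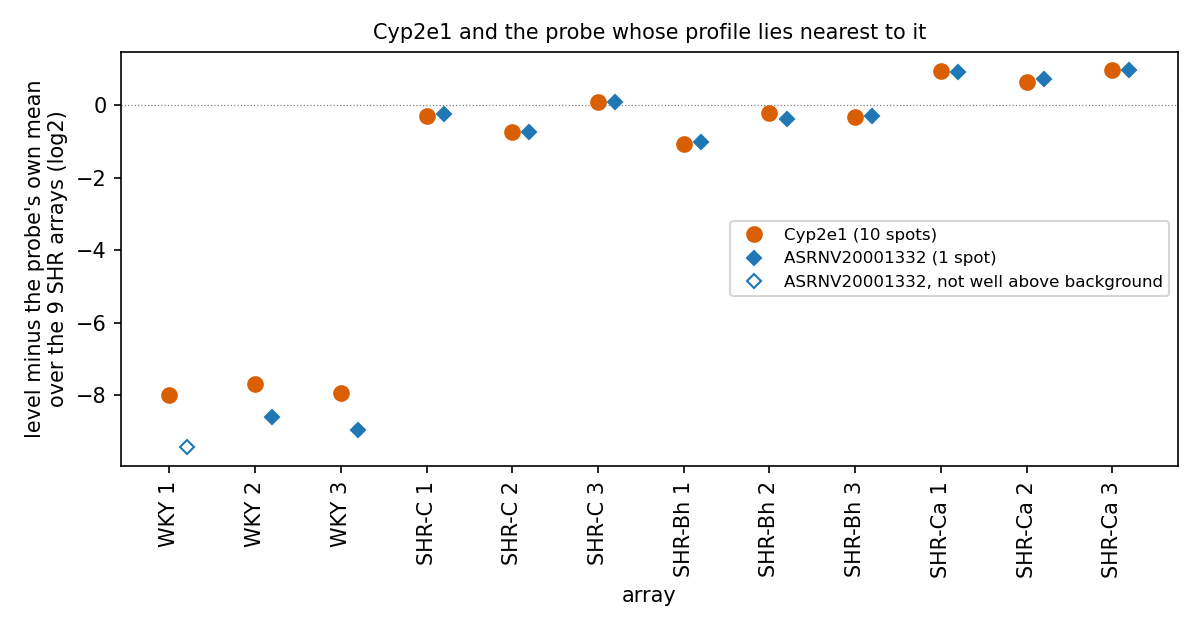
Level on each array minus the probe's own mean over the 9 SHR arrays, on the log2 scale, for Cyp2e1 (circles) and ASRNV20001332 (diamonds, open where not well above background). On SHR-Bh 1 the values are -1.07 and -1.02 and on SHR-Ca 3 both are 0.96, while on WKY 1 they are -7.99 and -9.45.

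The second nearest probe was ASRNV20024450 over 12 arrays, at 1.12, and ASRNV20025525 over the SHR arrays, at 0.34. ASRNV20024450 had no captopril peak, with mean levels of 2.44 in SHR-C, 2.77 under BSJY and 2.18 under captopril. ASRNV20025525 was dim in SHR, with intensities of 3.81 to 20.5, and was well above background on 1 of 3 SHR-C arrays and 1 of 3 SHR-Bh arrays.

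Among the 38 named genes, the nearest to Cyp2e1 over 12 arrays were Cdh2, the adhesion protein N-cadherin, at 2.08, Eif4b, a translation initiation factor, at 2.22, and Trim2, a ubiquitin ligase, at 2.41. Each was lower in WKY than in SHR, but by less than Cyp2e1. The mean level in WKY and SHR-C was -2.64 and 0.81 for Cdh2, -0.22 and 2.76 for Eif4b, and -0.075 and 2.16 for Trim2. Over the SHR arrays the nearest were Eif4b at 0.63, Nat1 at 0.63 and the chaperone gene Hsp90ab1 at 0.64, all close to the 0.68 of Cyp2e1 itself. No named gene other than Cyp2e1 therefore followed its pattern within SHR closely, and Nat1 ranked 2382nd of 29516 probes.

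Nat1 had many near neighbours. Over 12 arrays the nearest were the probes without a gene name ASRNV20012504 at 0.13 and ASRNV20012791 at 0.13, against a root mean square of 0.65 for Nat1 itself. The nearest named genes were Ndfip2, an adaptor of Nedd4-family ubiquitin ligases, at 0.21, Pdcd10, a gene of vessel stability, at 0.28, and Hprt1, a purine salvage enzyme, at 0.28. Over the 9 SHR arrays the nearest were ASRNV20010877 at 0.098 and ASRNV20013068 at 0.10, and among named genes Enpp1, which makes pyrophosphate, at 0.20, Ndfip2 at 0.24 and Magoh, of the exon junction complex, at 0.24, against 0.43 for Nat1. The match within SHR did not extend to the strain difference for ASRNV20013068, whose mean level was 4.26 in WKY and 3.92 in SHR-C, whereas that of ASRNV20010877 was -0.018 and 1.38. Between Cyp2e1 and Nat1 the measure was 2.95 over 12 arrays, which placed Cyp2e1 29239th of 29513 from Nat1 and Nat1 4449th from Cyp2e1. It was 0.63 over the SHR arrays, where Cyp2e1 was 14496th of 29516 from Nat1. Over 12 arrays the measure includes the strain difference of Cyp2e1, on which it was selected.

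The other genes of the pathway were not named on this array. Of 58 phase I genes in the list Cyp2e1 alone was named, of 39 phase II genes Nat1 alone, and of 25 transporters and regulators none. Whether other cytochrome P450 or N-acetyltransferase genes moved was not analysed here. Probe sequences were not used here either, so binding of close relatives of Cyp2e1 or Nat1 to these probes was not tested.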

How the data were processed

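Per the labels, total RNA of each aorta sample was labelled with Cy3 and hybridised to a single-colour Agilent array. The authors deposited scanner output with the intensity of each of 43040 spots (41623 not controls). Background subtraction and removal of spatial trends were done in Agilent Feature Extraction 11.0.1.1, per the file headers, and no step between arrays is recorded. Here outlier spots were left out, a probe's log2 intensities were averaged over its spots, and the 75th percentile of each array was subtracted. Tests covered probes that stood well above background in a whole group of 3 arrays (29618 of 38321, 77.3%). The 12 arrays entered 1 model with a mean for each group (limma 3.58.1, R 4.3.3), with a moderated two-sided test and Benjamini-Hochberg adjustment over tested probes (threshold 0.05), and the method was tested on simulated data. The members, the gene and marker lists and the tests were chosen with earlier results of these data known.

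Named genes were both members, every listed xenobiotic gene the array named, and, for each member, the 3 named genes and 2 probes without a gene name of nearest profile. Accessions stood on 62 probes, and 39 of these were found in a RefSeq table, as 38 genes. The array design names another build than that table, so no gene coordinates are taken from it. Where several probes read a gene, values are of the brightest. Alternatives changed the scaling, the background correction (normexp, offset 50, on the median spot and background signals, since the files used here hold no mean signal, unlike the plan), the spot summary, the filter, the weights, the blocks (replicate number, scan session) and the arrays left out. The number of arrays limits the precision. The low-dose BSJY group that the labels name was not analysed here.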

Additional observations from a re-analysis of the deposited data

How the results depend on the processing

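Of 250 recomputed differences 220 kept their direction and moved by less than the spread between replicates or stayed on the same side of the threshold, and none of the 4 tested differences passed under any setting. The settings for the filter, the variance, the compared groups alone and the replicate block cannot change a difference in this balanced design. For differences without a test, these settings counted as kept in advance, so the count overstates stability. Adjusted p over settings was 0.6 to 1 for Cyp2e1 and 0.28 to 1 for Nat1 in SHR-Bh against SHR-C, 0.15 to 1 for Nat1 in SHR-Ca against SHR-C, and 0.23 to 1 for Nat1 between the treatments. Values that moved, on the log2 scale, were as follows, and the cause was not tested. Quantile normalization gave Cyp2e1 differences from WKY of 8.33 (SHR-C), 7.99 (SHR-Bh) and 9.57 (SHR-Ca), and normexp gave 6.05, 5.85 and 7.26, with 0.95 for Nat1 in SHR-Bh. Scaling on probes well above background on all arrays gave 6.93 (SHR-Bh) and 8.45 (SHR-Ca) for Cyp2e1 and 0.88 for Nat1 in SHR-Bh. The reference genes gave 7.06, 6.80 and 8.93 for Cyp2e1 in SHR-C, SHR-Bh and SHR-Ca, 0.37 and 0.75 for Nat1 in SHR-C and SHR-Bh, and, for Cyp2e1, 1.87 for SHR-Ca minus SHR-C and -2.13 for SHR-Bh minus SHR-Ca. For Nat1 they gave 1.25 and -0.87 in those 2 comparisons, neither past the threshold. The median difference of all tested probes in those 2 comparisons was 0.66 and -0.71 with the reference genes, against -0.052 and 0.034 in the main setting. No scaling, chosen after seeing the data, gave 6.75, 6.33 and 7.77 for Cyp2e1 and 0.059, 0.28 and 0.46 for Nat1. A 75th percentile over probes well above background on all SHR arrays, also chosen after seeing the data, changed no call.

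The sign changed for Cyp2e1 in SHR-Bh minus SHR-C with array weights (0.0037, adjusted p = 1 in limma) and without SHR-Bh 1 (range when 1 array was left out -0.45 to 0.032). It changed for Nat1 in SHR-Bh minus SHR-Ca with array weights (0.24, adjusted p = 0.65), with scan session as a fixed block among SHR arrays and within session 4 (0.15 in both), and without SHR-Bh 1 or SHR-Ca 2 (range -0.32 to 0.19). The Nat1 difference of SHR-C from WKY was 0.67 to 1.00 when 1 array was left out, that of SHR-Ca from SHR-C 0.22 to 0.75, lowest without SHR-Ca 2, and that of SHR-Bh from SHR-C 0.28 to 0.62, highest without SHR-Bh 1.

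Arrays of 1 replicate number did not deviate together (18 pairs, r -0.55 to 0.48, median -0.087, 7 over 0.1), so the numbers name samples only. With the replicate block, Nat1 in SHR-Ca minus SHR-C was 0.54 (adjusted p = 0.49), and Cyp2e1 in SHR-Bh minus SHR-C was -0.23 (adjusted p = 0.78), and no call changed. Signal over background limits Cyp2e1 in WKY, where its spots were dimmest.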
